A study of Mus musculus with 6 samples.

Results

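Well-expressed long noncoding RNAs (lncRNAs) of a macrophage line were compared between 2 treatments with extracellular vesicles. The lncRNAs are the rows annotated as lncRNA in the authors' deposited count table whose mean over the 6 libraries reached 5 CPM, a count scaled to the library total. Gas5 and the genes named Snhg, which host small nucleolar RNAs, were left out. These rules kept 174 of 11599 lncRNA rows in a table of 57010 genes. Of the lncRNA rows, 4878 had at least 1 count. The 174 lncRNAs were thus chosen by their mean level over both treatments together, and not on the difference between the treatments. The cells were RAW 264.7, an established mouse macrophage line, stimulated in every sample with lipopolysaccharide. This agent comes from the outer membrane of bacteria and turns on inflammatory genes. In the hypoxic-EV group (3 samples) they then received vesicles shed by tendon stem cells that had been preconditioned in hypoxia. In the normoxic-EV group (3 samples) the donors of the vesicles were tendon stem cells held in normoxia. The sources used here state no dose or exposure time, nor the species of the tendon stem cells. Cells given no vesicles were not analysed here, and each value sets the vesicle treatments against each other. Whether the 3 samples of a group were separate cultures is not stated in the labels, and the p-values measure only the spread between samples, which may be technical.

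Long noncoding RNAs are transcripts that are mostly spliced and polyadenylated like messenger RNAs but are not annotated with a protein product. Some act in the nucleus as scaffolds of nuclear bodies or on the transcription of genes near their own locus. Others act in the cytoplasm by binding proteins or microRNAs, and for many no function is known. Divergent lncRNAs start beside the promoter of a protein-coding gene and run away from it on the other strand, and antisense lncRNAs overlap a gene on the other strand. In macrophages several lncRNAs are induced or repressed by Toll-like receptor ligands and modulate inflammatory genes.

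Of the 174 lncRNAs, 63 were lower and 22 higher in hypoxic-EV than in normoxic-EV at an adjusted p under 0.05 in edgeR's quasi-likelihood test, and 89 did not pass the test. That is 48.9% called, beside 44.2% of all genes tested, so the share that changed lay near the background. The direction was uneven: 36.2% of the lncRNAs were lower, beside 21.5% of all genes, and 12.6% were higher, beside 22.7%. The median log2 fold change was -0.13 over the lncRNAs and -0.00 over all genes tested. Among 9468 protein-coding genes with a mean of at least 5 CPM, 24% were lower and 27.4% higher. The 818 other lncRNAs tested held 134 lower and 40 higher genes, or 21.3% called. All 174 lncRNAs passed the filter on low counts. Reads come from whole cultures, so fewer cells that express a gene and less RNA per cell cannot be told apart.

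**Figure D1:**
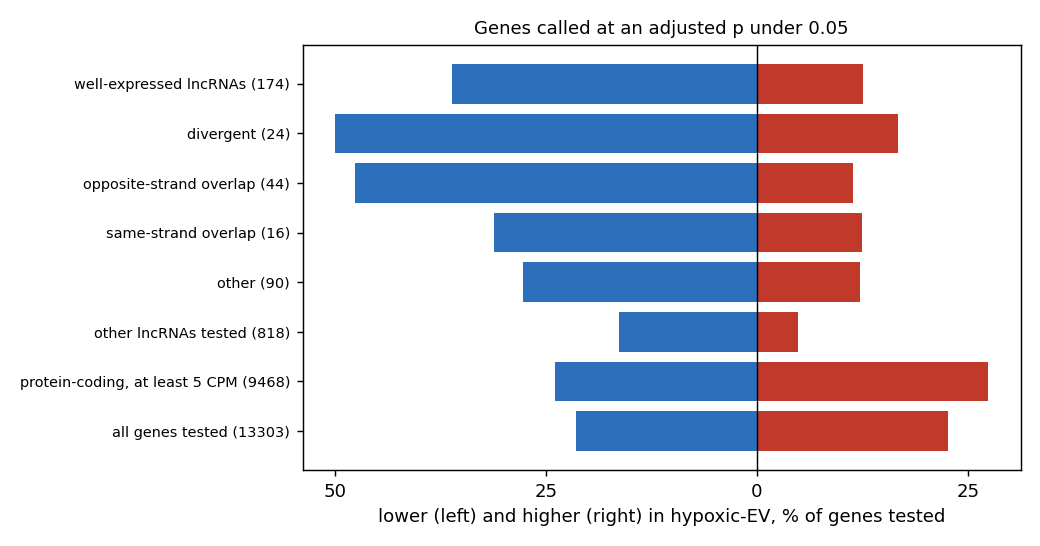
Share of genes called lower (blue, to the left) and higher (red, to the right) in hypoxic-EV, in percent of the genes tested, with the number tested in parentheses. Rows stand for the 174 lncRNAs, for their 4 positions relative to a protein-coding neighbour, for the other lncRNAs, for protein-coding genes of at least 5 CPM and for all genes. The blue bar of the 174 lncRNAs reaches 36.2% and its red bar 12.6%, while the bars of all genes reach 21.5% and 22.7%.

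Most changes were modest. Called lncRNAs had a median absolute change of 0.48 on the log2 scale. Of them, 9 were at least 2-fold lower and 0 at least 2-fold higher. Hypoxic-EV and normoxic-EV values were fully separate for 88 lncRNAs (50.6%), beside 52.8% of all genes tested, and 77 lncRNAs were both called and without overlap. Most of the lncRNAs sat near the threshold: 92 (52.9%) had a mean from 5 to 10 CPM, of which 32 were lower and 13 higher. Of the 46 from 10 to 20 CPM, 22 were lower and 3 higher. Of the 17 from 20 to 50 CPM, 4 were lower and 3 higher, and of the 19 above 50 CPM, 5 were lower and 3 higher. From the lowest range to the highest, 34.8%, 47.8%, 23.5% and 26.3% of the lncRNAs were thus lower. The shares of protein-coding genes in the same ranges were 18.1%, 19.7%, 22.9% and 27.1%. Higher were 14.1%, 6.52%, 17.6% and 15.8% of the lncRNAs, beside 21.7%, 22.6%, 26.8% and 30.4% of those protein-coding genes. Total counts over the 6 libraries ran from 587 to 54556 per lncRNA, and the lowest count in any library was 52. A group mean under 5 CPM was found for 19 lncRNAs in hypoxic-EV alone and for 7 in normoxic-EV alone.

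**Figure D2:**
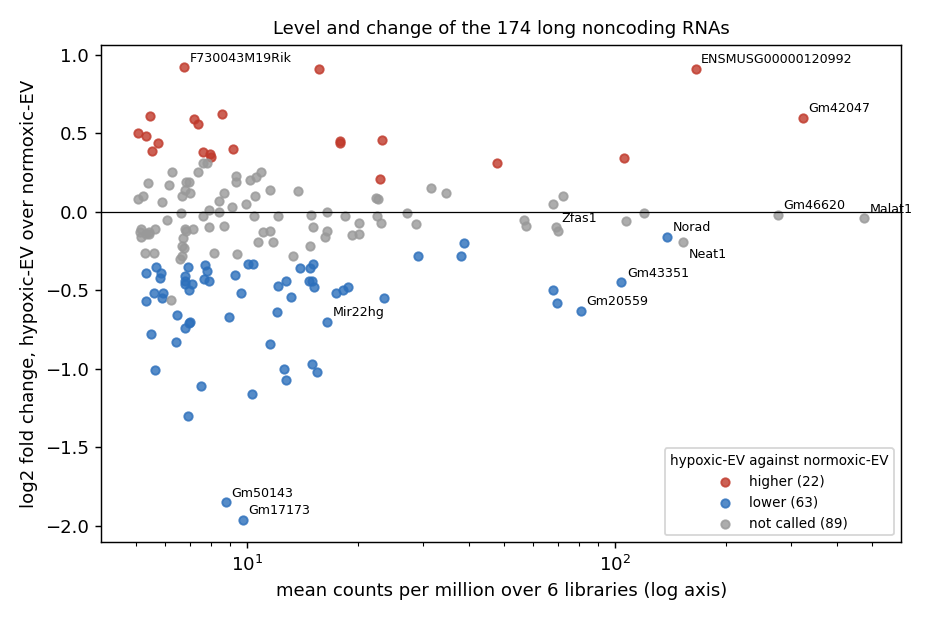
Mean level over the 6 libraries (horizontal, CPM, log axis) and log2 fold change of hypoxic-EV over normoxic-EV (vertical) of each of the 174 lncRNAs, coloured by the edgeR call. The 63 lower lncRNAs (blue) outnumber the 22 higher ones (red), Gm17173 and Gm50143 lie lowest, and Malat1 at the right lies near 0.

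Library totals ran from 16751665 to 23422328 counts in hypoxic-EV and from 16788467 to 22514707 counts in normoxic-EV. The 174 lncRNAs took 0.456%, 0.424% and 0.405% of the counts in the hypoxic-EV libraries, against 0.424%, 0.461% and 0.433% in the normoxic-EV libraries. The groups overlapped (two-sided exact permutation p = 0.5, where 3 against 3 cannot go below 0.1). Of the macrophage markers, 10 of 10 had counts and 9 had a mean of at least 5 CPM. Their summed level ran from 8485 to 8885 CPM in hypoxic-EV and from 10501 to 10933 CPM in normoxic-EV. The 10 markers of tendon and stromal cells summed to between 0.765 and 1.36 CPM in hypoxic-EV and between 0.896 and 1.81 CPM in normoxic-EV, with Tnmd, Col1a2, Col3a1, Thy1 and Fmod at 0. The 7 markers of T and B cells summed to at most 1.08 CPM in hypoxic-EV and 0.70 CPM in normoxic-EV. The 5 neutrophil genes, of which Elane was at 0, summed to between 95.8 and 119 CPM in hypoxic-EV and between 237 and 269 CPM in normoxic-EV. The part of these differing sums in the lncRNA results was not tested.

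The most abundant member by counts was Malat1 (ENSMUSG00000092341, chromosome 19, 5845717 to 5852704, minus strand, GRCm39 as for all gene coordinates of the files), a nuclear RNA of the splicing speckles. It had 554, 456 and 396 CPM in hypoxic-EV, against 398, 623 and 428 CPM in normoxic-EV, with the TMM scaling that is used for all CPM values of single genes below. The groups overlapped and the change did not pass the test (log2 fold change -0.04, SE 0.12, adjusted p by edgeR = 0.7901). Neat1 (ENSMUSG00000092274, chromosome 19, 5874736 to 5895898, minus strand), which lies near it and is the RNA on which paraspeckles form, had 172, 136 and 121 CPM in hypoxic-EV, against 146, 196 and 146 CPM in normoxic-EV. In both genes the highest hypoxic-EV library was replicate 1 and the highest normoxic-EV library was replicate 2. Neat1 was not called either (log2 fold change -0.19, SE 0.10, adjusted p by edgeR = 0.148). Over the fits that left out 1 library Malat1 ran from -0.18 to 0.18 on the log2 scale and was called in none by edgeR. Neat1 stood at -0.34 without hypoxic-EV replicate 1 (adjusted p by edgeR = 0.00751), at -0.07 without hypoxic-EV replicate 3 (adjusted p by edgeR = 0.595) and at -0.03 without normoxic-EV replicate 2 (adjusted p by edgeR = 0.795). Malat1 had the third largest spread within the groups of the 174 lncRNAs, with an SD of 21.1% of the mean averaged over the groups. Neat1 had the seventh largest with 18.1%, beside a median of 8.84%.

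Norad (ENSMUSG00000102869, chromosome 2, 156229980 to 156234921, minus strand), an unspliced cytoplasmic RNA that binds Pumilio proteins and protects chromosome stability, was modestly lower. It had 136, 135 and 121 CPM in hypoxic-EV, against 143, 151 and 144 CPM in normoxic-EV. The groups did not overlap and the call was narrow (log2 fold change -0.16, SE 0.052, adjusted p by edgeR = 0.0153). Without hypoxic-EV replicate 3 the log2 fold change was -0.11 (adjusted p by edgeR = 0.130), and without normoxic-EV replicate 2 it was -0.14 (adjusted p by edgeR = 0.0835). Per length, Norad stood at 26.4 ± 1.82 FPKM in hypoxic-EV and 29.5 ± 1.03 FPKM in normoxic-EV (SD, n = 3), below Malat1 at 67.2 ± 12.1 FPKM in hypoxic-EV and 69.2 ± 17.7 FPKM in normoxic-EV (SD, n = 3).

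Gm42047 and ENSMUSG00000120992, genes with names that point to no function, were the most abundant lncRNAs that rose. Gm42047 (ENSMUSG00000110631, chromosome 8, 122559986 to 122567917, plus strand) had 412, 390.4 and 369.7 CPM in hypoxic-EV, against 255, 254 and 262 CPM in normoxic-EV. All hypoxic-EV libraries lay above all normoxic-EV libraries (log2 fold change 0.60, SE 0.048, adjusted p by edgeR = 1.70e-09). ENSMUSG00000120992 (chromosome 17, 35215654 to 35219393, minus strand) had 223, 217 and 209 CPM in hypoxic-EV, against 108, 113 and 124 CPM in normoxic-EV, a 1.88-fold difference with no overlap (log2 fold change 0.91, SE 0.053, adjusted p by edgeR = 1.39e-11). It starts 570 bases from Vars, the valyl-tRNA synthetase gene on the other strand, which was also higher (log2 fold change 0.37, adjusted p by edgeR = 5.20e-06).

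The other 3 of the 8 most abundant lncRNAs did not pass the test. Gm46620 (ENSMUSG00000118012, chromosome 18, 82712412 to 82719461, plus strand) had 308, 234 and 284 CPM in hypoxic-EV, against 268, 292 and 276 CPM in normoxic-EV. Its hypoxic-EV libraries spanned more than its normoxic-EV ones (log2 fold change -0.02, SE 0.069, adjusted p by edgeR = 0.871). ENSMUSG00000121141 lies on the strand of Cmip, 286 bases past its end. It had 122, 116 and 119 CPM in hypoxic-EV, against 118, 121 and 121 CPM in normoxic-EV, nearly the same level in every library (log2 fold change -0.01, SE 0.047, adjusted p by edgeR = 0.9295). The third, 2410006H16Rik (ENSMUSG00000086841, chromosome 11, 62493650 to 62495725, plus strand), overlaps the end of Lrrc75a on the other strand. It had 107, 97.3 and 110.1 CPM in hypoxic-EV, against 114, 107 and 107 CPM in normoxic-EV (log2 fold change -0.06, SE 0.054, adjusted p by edgeR = 0.434). On the per-length scale the order was different, and Gm43351, a gene of only 326 bases, led with 269.7 ± 12.2 FPKM in hypoxic-EV and 369 ± 17.4 FPKM in normoxic-EV (SD, n = 3). Gm46620 followed with 147 ± 21.6 FPKM in hypoxic-EV and 149 ± 7.03 FPKM in normoxic-EV (SD, n = 3). Over the 174 lncRNAs the mean level ran from 0.260 to 319 FPKM with a median of 3.64 FPKM.

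Gm17173 and Gm50143 fell furthest. Gm17173 (ENSMUSG00000090709, chromosome 14, 45209725 to 45244357, minus strand) had 4.13, 3.67 and 4.17 CPM in hypoxic-EV, against 14.6, 16.4 and 15.5 CPM in normoxic-EV. Every hypoxic-EV library was below every normoxic-EV library and the mean was 3.88-fold lower (log2 fold change -1.96, SE 0.12, adjusted p by edgeR = 1.83e-11). It overlaps Ptger2 on the other strand, the gene of a prostaglandin E2 receptor, which was itself lower with 6.66, 7.04 and 5.85 CPM in hypoxic-EV, against 11.6, 13.9 and 16.5 CPM in normoxic-EV. The lncRNA fell by more than Ptger2 (log2 ratio -0.80, SE 0.18, adjusted p by limma = 0.00237). Gm50143 (ENSMUSG00000117764, chromosome 18, 66260376 to 66351359, minus strand) had 3.30, 3.62 and 4.38 CPM in hypoxic-EV, against 15.2, 12.5 and 13.7 CPM in normoxic-EV, without overlap (log2 fold change -1.85, SE 0.13, adjusted p by edgeR = 2.73e-10). It lies within Ccbe1 on the same strand, a gene of lymphatic vessel growth. Ccbe1 had a log2 fold change of -1.72 (adjusted p by edgeR = 2.12e-07), and the ratio of the pair did not pass the test (log2 ratio -0.23, SE 0.20, adjusted p by limma = 0.358). Reads of such overlapping genes cannot be told apart with certainty, because the sources used here do not state the strand setting of the counting.

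A230028O05Rik, ENSMUSG00000120405 and ENSMUSG00000119972 fell with no overlapping gene of at least 10% of their own counts. A230028O05Rik (ENSMUSG00000096960, chromosome 16, 24878123 to 24887808, plus strand), downstream of the adhesion gene Lpp, had 4.13, 3.87 and 4.04 CPM in hypoxic-EV, against 8.31, 9.86 and 11.3 CPM in normoxic-EV. The hypoxic-EV libraries were tightly grouped at the low end (log2 fold change -1.30, SE 0.14, adjusted p by edgeR = 1.48e-07). The ratio to Lpp, which was not called, fell too (log2 ratio -1.03, SE 0.16, adjusted p by limma = 1.36e-04). ENSMUSG00000120405 (chromosome 3, 95580588 to 95581451, minus strand) had 6.42, 5.91 and 6.83 CPM in hypoxic-EV, against 14.5, 14.6 and 13.9 CPM in normoxic-EV, without overlap (log2 fold change -1.16, SE 0.11, adjusted p by edgeR = 1.69e-08). Its neighbour Adamtsl4 was not called. ENSMUSG00000119972 (chromosome 3, 70696525 to 70714652, minus strand) had 3.83, 3.67 and 3.696 CPM in hypoxic-EV, against 7.29, 7.58 and 7.72 CPM in normoxic-EV, again without overlap (log2 fold change -1.01, SE 0.13, adjusted p by edgeR = 2.36e-06).

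Gm16196 (ENSMUSG00000086154, chromosome 17, 29233616 to 29251542, minus strand), divergent from the splicing factor gene Srsf3, had 4.89, 4.59 and 4.69 CPM in hypoxic-EV, against 11.5, 9.68 and 9.59 CPM in normoxic-EV. Its normoxic-EV libraries were all above 9 CPM and its hypoxic-EV libraries all below 5 CPM (log2 fold change -1.11, SE 0.13, adjusted p by edgeR = 3.12e-07). Gm14636 (ENSMUSG00000073274, chromosome X, 19011600 to 19034490, minus strand) lies far from any tested protein-coding gene. It had 9.901, 11.3 and 9.63 CPM in hypoxic-EV, against 19.2, 22.9 and 20.3 CPM in normoxic-EV, all hypoxic-EV libraries below all normoxic-EV ones (log2 fold change -1.02, SE 0.097, adjusted p by edgeR = 2.78e-08).

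Of the 10 largest decreases, 3 more belonged to lncRNAs that overlap a well-expressed gene that fell. Gm49774 (ENSMUSG00000116657, chromosome 17, 27764681 to 27775492, minus strand) overlaps the start of Hmga1 on the other strand, a gene of chromatin architecture. It had 8.49, 8.56 and 7.74 CPM in hypoxic-EV, against 16.3, 19.2 and 16.4 CPM in normoxic-EV (log2 fold change -1.07, SE 0.10, adjusted p by edgeR = 3.48e-08). Hmga1 was lower by less (344 ± 21.9 CPM in hypoxic-EV and 461 ± 16.1 CPM in normoxic-EV, SD, n = 3, log2 fold change -0.42, adjusted p by edgeR = 7.52e-07). The ratio of the pair fell (log2 ratio -0.60, SE 0.096, adjusted p by limma = 1.62e-04). Gm16712 (ENSMUSG00000097077, chromosome 17, 56261771 to 56266381, minus strand) overlaps Ebi3 on the other strand, which encodes a subunit of interleukin 27. It had 9.49, 9.07 and 6.71 CPM in hypoxic-EV, against 17.7, 16.4 and 16.1 CPM in normoxic-EV (log2 fold change -1.0, SE 0.12, adjusted p by edgeR = 4.82e-07). Ebi3 had 26.3, 22.6 and 32.1 CPM in hypoxic-EV, against 58.6, 58.8 and 57.9 CPM in normoxic-EV, a like decrease (log2 fold change -1.11, adjusted p by edgeR = 1.30e-09). Gm15832 (ENSMUSG00000085894, chromosome 1, 39586651 to 39591083, minus strand) overlaps the end of Rnf149 on the same strand, a ubiquitin ligase gene whose counts came to 3272% of its own. The lncRNA had 11.7, 9.74 and 9.11 CPM in hypoxic-EV, against 19.2, 22.3 and 17.97 CPM in normoxic-EV (log2 fold change -0.97, SE 0.11, adjusted p by edgeR = 2.55e-07). Rnf149 had a log2 fold change of -0.98 (adjusted p by edgeR = 5.97e-13), and neither ratio to the overlapping gene passed the test.

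**Figure D3:**
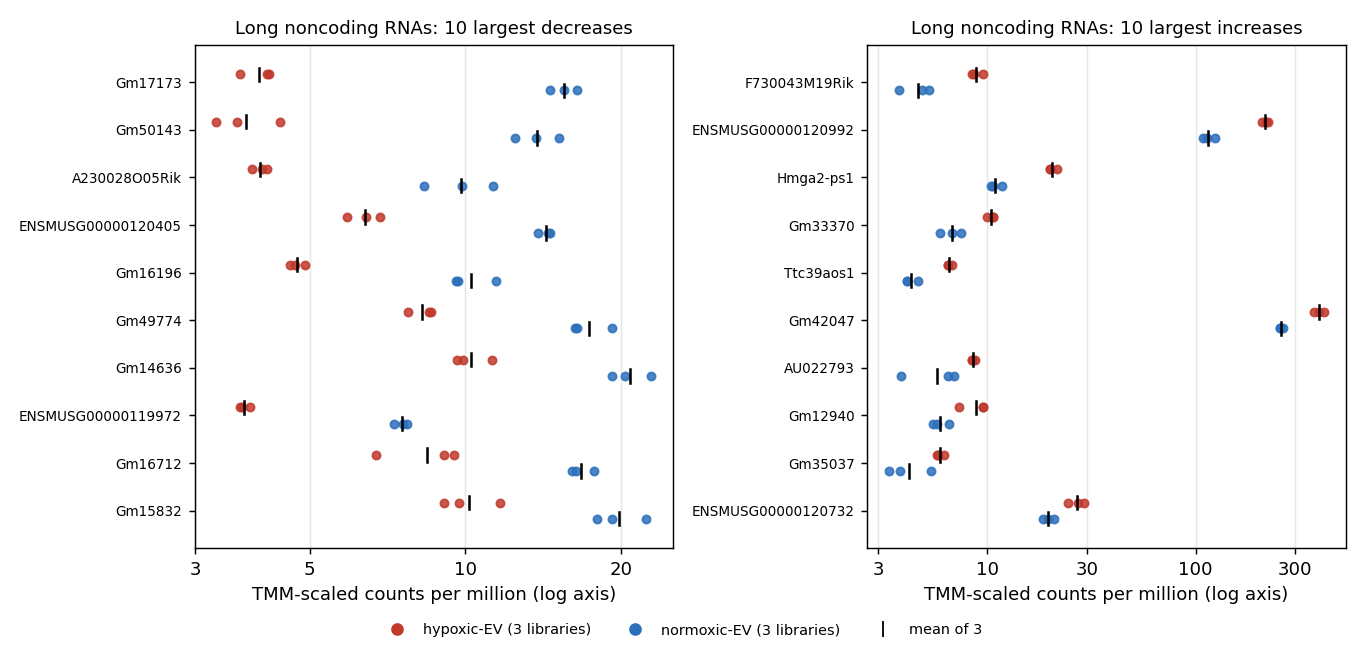
TMM-scaled CPM (log axis) in each of 3 hypoxic-EV (red) and 3 normoxic-EV (blue) libraries, with the mean as a bar. Shown are the 10 lncRNAs with the largest decreases (left) and the 10 with the largest increases (right) among those called with no overlap. Gm17173 averages 3.99 CPM in hypoxic-EV and 15.5 CPM in normoxic-EV. F730043M19Rik averages 8.87 CPM in hypoxic-EV and 4.63 CPM in normoxic-EV.

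Among the increases, F730043M19Rik, ENSMUSG00000120992 and Hmga2-ps1 came closest to 2-fold. F730043M19Rik (ENSMUSG00000052125, chromosome 12, 33161710 to 33197611, minus strand) is divergent from Atxn7l1. It had 8.61, 9.58 and 8.42 CPM in hypoxic-EV, against 3.76, 4.84 and 5.28 CPM in normoxic-EV, with all hypoxic-EV libraries above all normoxic-EV ones (log2 fold change 0.92, SE 0.14, adjusted p by edgeR = 1.33e-05). Hmga2-ps1 (ENSMUSG00000121135, chromosome 1, 176662183 to 176663734, minus strand) is named as a pseudogene of Hmga2 and lies in Sdccag8 on the other strand. It had 19.98, 21.7 and 19.9 CPM in hypoxic-EV, against 11.8, 10.4 and 10.6 CPM in normoxic-EV and no overlap (log2 fold change 0.91, SE 0.090, adjusted p by edgeR = 4.92e-08). Reads of a gene named as a copy of another are uncertain, since the sources used here do not state how multi-mapping reads were treated. Gm33370 (ENSMUSG00000105283, chromosome 5, 97057565 to 97070053, minus strand) had 9.96, 10.6 and 10.6 CPM in hypoxic-EV, against 5.92, 7.52 and 6.79 CPM in normoxic-EV (log2 fold change 0.62, SE 0.12, adjusted p by edgeR = 1.74e-04). AU022793 (ENSMUSG00000115230, chromosome 15, 39826041 to 39830420, plus strand) had 8.43, 8.77 and 8.47 CPM in hypoxic-EV, against 6.51, 6.94 and 3.86 CPM in normoxic-EV (log2 fold change 0.59, SE 0.16, adjusted p by edgeR = 0.00496). In AU022793 normoxic-EV replicate 3 stood well below the other two of its group, and no normoxic-EV library reached a hypoxic-EV one. Without that replicate the log2 fold change of AU022793 was 0.35, with a narrow call (adjusted p by edgeR = 0.0456).

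Gm12940 (ENSMUSG00000085334, chromosome 4, 126927524 to 126943191, plus strand) overlaps Sfpq on the same strand, the gene of a splicing and paraspeckle protein, whose counts came to 2492% of its own. It had 9.55, 9.53 and 7.35 CPM in hypoxic-EV, against 5.497, 6.59 and 5.73 CPM in normoxic-EV, higher in each hypoxic-EV library (log2 fold change 0.56, SE 0.13, adjusted p by edgeR = 0.001802). Sfpq rose by nearly the same factor (log2 fold change 0.54, adjusted p by edgeR = 1.42e-08). ENSMUSG00000120732 (chromosome 6, 38664447 to 38666027, minus strand) lies 5297 bases past the end of the kinase gene Hipk2 on its strand. It had 29.2, 27.4 and 24.5 CPM in hypoxic-EV, against 19.5, 20.9 and 18.5 CPM in normoxic-EV (log2 fold change 0.46, SE 0.082, adjusted p by edgeR = 1.09e-04). Hipk2 was higher to a like degree (log2 fold change 0.43, adjusted p by edgeR = 4.24e-05). Gm35037 (ENSMUSG00000107985, chromosome 7, 3499873 to 3523536, plus strand) had 5.84, 6.17 and 5.72 CPM in hypoxic-EV, against 5.38, 3.38 and 3.82 CPM in normoxic-EV, a gap between the groups of less than their spread (log2 fold change 0.50, SE 0.16, adjusted p by edgeR = 0.0145). It lost its call without normoxic-EV replicate 2 (0.38, adjusted p by edgeR = 0.0893) and without normoxic-EV replicate 3 (0.44, adjusted p by edgeR = 0.0682). By DESeq2 it was not called either (adjusted p by DESeq2 = 0.0530). Its neighbour Tarm1, which encodes an activating receptor of myeloid cells, was lower (log2 fold change -0.56, adjusted p by edgeR = 1.97e-06).

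The remaining called lncRNAs changed by less. Another 11 were higher, with log2 fold changes between 0.21 and 0.48, and another 46 were lower, between -0.84 and -0.20. The 89 that did not pass the test lay between -0.56 and 0.31. Of the 19 lncRNAs above 50 CPM, 3 further decreases and the increase of Brip1os are given that were chosen after their values were seen. Gm43351 (ENSMUSG00000105769) had 83.9, 86.9 and 93.1 CPM in hypoxic-EV, against 127, 118 and 115 CPM in normoxic-EV (log2 fold change -0.45, SE 0.054, adjusted p by edgeR = 7.43e-07). Gm20559 (ENSMUSG00000106734) had 60.5, 66.4 and 63.7 CPM in hypoxic-EV, against 104, 99.02 and 92.7 CPM in normoxic-EV (log2 fold change -0.63, SE 0.056, adjusted p by edgeR = 1.02e-08). Samd9l, an interferon-induced gene near it, was lower as well (log2 fold change -0.54, adjusted p by edgeR = 7.69e-08). Gm6329 (ENSMUSG00000110231) had 55.7, 55.9 and 55.2 CPM in hypoxic-EV, against 87.2, 80.1 and 82.8 CPM in normoxic-EV (log2 fold change -0.58, SE 0.053, adjusted p by edgeR = 1.46e-08). The groups of these 3 lower lncRNAs were wide apart relative to their spread. Brip1os, which overlaps Med13 and Ints2 on the other strand, went the other way with 115, 120.1 and 119 CPM in hypoxic-EV, against 93.3, 91.4 and 95.4 CPM in normoxic-EV (log2 fold change 0.34, SE 0.048, adjusted p by edgeR = 7.54e-06).

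Of 51 names on lists of lncRNAs with a known role, 45 were in the count table and 16 were among the 174, of which 2 were higher and 4 lower, beside 22.7% and 21.5% of all genes tested. The list of inflammatory and macrophage lncRNAs held 3 of the 174, and 2 of these were higher. Ttc39aos1 (ENSMUSG00000085873, chromosome 4, 109259476 to 109263430, minus strand), also called lincRNA-EPS, is known in mouse macrophages as a nuclear RNA that restrains immune response genes. It had 6.48, 6.78 and 6.49 CPM in hypoxic-EV, against 4.66, 4.14 and 4.13 CPM in normoxic-EV, without overlap (log2 fold change 0.61, SE 0.13, adjusted p by edgeR = 8.14e-04). Ttc39a, which starts 390 bases away on the other strand, had 4.36, 5.35 and 4.298 CPM in hypoxic-EV, against 3.05, 2.33 and 2.397 CPM in normoxic-EV and was higher too (log2 fold change 0.86, adjusted p by edgeR = 3.97e-04).

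Morrbid (ENSMUSG00000074813, chromosome 2, 128020239 to 128344685, minus strand) is known in mouse myeloid cells to repress the pro-apoptotic gene Bcl2l11 beside it. It had 6.42, 6.93 and 6.45 CPM in hypoxic-EV, against 5.08, 4.32 and 5.19 CPM in normoxic-EV, without overlap (log2 fold change 0.44, SE 0.13, adjusted p by edgeR = 0.0117). Without normoxic-EV replicate 2 the change was 0.36 and missed the threshold (adjusted p by edgeR = 0.0652). DESeq2 gave 0.44 and did not call it (adjusted p by DESeq2 = 0.0549). Bcl2l11 had 129.5, 134 and 129 CPM in hypoxic-EV, against 165, 173 and 166 CPM in normoxic-EV, lower in every hypoxic-EV library (log2 fold change -0.36, adjusted p by edgeR = 2.23e-06). The ratio of Morrbid to Bcl2l11 rose (log2 ratio 0.76, SE 0.11, adjusted p by limma = 4.74e-05). The third was Ptgs2os2 (ENSMUSG00000097754, chromosome 1, 150034794 to 150040836, minus strand), known as lincRNA-Cox2, a mouse regulator of inflammatory genes that is induced by Toll-like receptor ligands. It had 13.1, 16.4 and 15.2 CPM in hypoxic-EV, against 14.9, 13.5 and 16.6 CPM in normoxic-EV, which overlapped (log2 fold change -0.02, SE 0.10, adjusted p by edgeR = 0.917).

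MicroRNA host genes gave 4 of the 174 lncRNAs, and Ftx of the X chromosome list hosts microRNAs too. Mir22hg (ENSMUSG00000085148, chromosome 11, 75352365 to 75357502, plus strand) had 11.8, 12.95 and 12.9 CPM in hypoxic-EV, against 19.96, 21.5 and 20.02 CPM in normoxic-EV, with every hypoxic-EV library under every normoxic-EV one (log2 fold change -0.70, SE 0.086, adjusted p by edgeR = 9.52e-07). Tlcd2, which overlaps it on the same strand, fell by nearly the same factor (log2 fold change -0.72, adjusted p by edgeR = 0.00129). Dleu2, host of miR-16, had 12.6, 13.5 and 10.1 CPM in hypoxic-EV, against 15.4, 15.6 and 12.9 CPM in normoxic-EV, which just missed the threshold (log2 fold change -0.28, SE 0.11, adjusted p by edgeR = 0.0522). Mir17hg, host of a cluster tied to cell growth, had 7.898, 6.78 and 5.76 CPM in hypoxic-EV, against 5.68, 6.298 and 5.104 CPM in normoxic-EV (log2 fold change 0.25, SE 0.14, adjusted p by edgeR = 0.161). Mir142hg, host of a microRNA of blood cells, had 7.72, 5.25 and 6.53 CPM in hypoxic-EV, against 5.795, 6.82 and 4.75 CPM in normoxic-EV (log2 fold change 0.17, SE 0.16, adjusted p by edgeR = 0.399). Both had overlapping groups. The mature microRNAs were not measured here, and their sequences show what the hosts carry.
miR-22-5p: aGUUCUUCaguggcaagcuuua
miR-22-3p: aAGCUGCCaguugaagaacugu
miR-16-5p: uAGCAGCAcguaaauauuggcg
miR-17-5p: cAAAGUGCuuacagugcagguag
miR-20a-5p: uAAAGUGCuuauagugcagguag
miR-19a-3p: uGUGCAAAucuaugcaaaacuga
miR-19b-3p: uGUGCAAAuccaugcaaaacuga
miR-142a-3p: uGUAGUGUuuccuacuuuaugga
Capitals mark the seed, bases 2 to 8 from the 5′ end, in the RefSeq sequences of GRCm38.p6. Of the Mir17hg cluster, miR-17-5p and miR-20a-5p share the seed AAAGUGC, and miR-19a-3p and miR-19b-3p share GUGCAAA.

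The lists of nuclear architecture and X chromosome dosage shared Firre, an X-linked nuclear RNA of repeats that anchors chromosomal contacts. Firre (ENSMUSG00000085396, chromosome X, 49644621 to 49724198, minus strand) had 31.8, 25.3 and 21.9 CPM in hypoxic-EV, against 30.7, 36.5 and 28.4 CPM in normoxic-EV, with overlapping groups and a call close to the threshold (log2 fold change -0.28, SE 0.11, adjusted p by edgeR = 0.0385). The call was lost without hypoxic-EV replicate 2, hypoxic-EV replicate 3, normoxic-EV replicate 1 or normoxic-EV replicate 2. Without these libraries, in that order, the log2 fold change was -0.26, -0.15, -0.30 and -0.18 (adjusted p by edgeR = 0.0663, 0.261, 0.0549 and 0.222). DESeq2 did not call Firre (adjusted p by DESeq2 = 0.0633). Ftx, a noncoding gene of the X inactivation centre, had 8.31, 7.80 and 7.61 CPM in hypoxic-EV, against 7.41, 8.34 and 7.81 CPM in normoxic-EV (log2 fold change 0.01, SE 0.12, adjusted p by edgeR = 0.972). Peg13 (ENSMUSG00000106847, chromosome 15, 72677449 to 72682173, minus strand), an imprinted lncRNA within Trappc9, had 8.96, 9.53 and 8.295 CPM in hypoxic-EV, against 12.7, 9.56 and 11.4 CPM in normoxic-EV (log2 fold change -0.33, SE 0.12, adjusted p by edgeR = 0.0246). Its groups nearly met without overlapping, and it lost its call in 4 of 6 fits that left out a library. It stood at -0.34 without hypoxic-EV replicate 1, -0.28 without hypoxic-EV replicate 3, -0.24 without normoxic-EV replicate 1 and -0.32 without normoxic-EV replicate 3 (adjusted p by edgeR = 0.0522, 0.108, 0.150 and 0.0715). DESeq2 did not call Peg13 (adjusted p by DESeq2 = 0.0771).

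Zfas1, Oip5os1 and Pvt1 completed the lists and were not called. Zfas1, a snoRNA host next to Znfx1, had 65.2, 64.2 and 69.8 CPM in hypoxic-EV, against 72.6, 70.2 and 71.6 CPM in normoxic-EV (log2 fold change -0.10, SE 0.053, adjusted p by edgeR = 0.123). Oip5os1, also called Cyrano, promotes the decay of miR-7. It had 69.1, 71.1 and 67.2 CPM in hypoxic-EV, against 67.2, 66.4 and 66.8 CPM in normoxic-EV, the smallest spread within groups of the 174 lncRNAs (log2 fold change 0.05, SE 0.052, adjusted p by edgeR = 0.461). Pvt1, which lies beside the gene of the growth regulator Myc, had 5.304, 5.76 and 5.12 CPM in hypoxic-EV, against 4.18, 5.83 and 5.02 CPM in normoxic-EV and overlapping groups (log2 fold change 0.10, SE 0.15, adjusted p by edgeR = 0.6001). Myc had 11.6, 10.4 and 9.63 CPM in hypoxic-EV, against 20.4, 16.6 and 18.6 CPM in normoxic-EV and was lower (log2 fold change -0.82, adjusted p by edgeR = 1.09e-06). The ratio of Pvt1 to Myc rose (log2 ratio 0.90, SE 0.20, adjusted p by limma = 0.00193). The hypoxia list held only Neat1 and Malat1 among the 174, neither of which was called.

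Each lncRNA was then set beside its neighbour, the tested protein-coding gene that overlapped it most or, without an overlap, lay nearest. Of 24 divergent lncRNAs (starts within 2000 bases, no overlap), 12 were lower and 4 higher, which is 66.7% called, while their neighbours held 5 lower and 10 higher genes. Of 44 lncRNAs overlapping the neighbour on the other strand, 21 were lower and 5 higher. Of 16 overlapping it on the same strand, 5 were lower and 2 higher, and of the other 90, 25 were lower and 11 higher. For comparison, 976 protein-coding genes tested in divergent position held 225 lower and 228 higher genes. The 153 divergent lncRNAs among the other lncRNAs tested held 33 lower and 5 higher genes (24.8% called), and thus leaned lower as well. Of all genes tested, 21.5% were lower and 22.7% higher. The position groups of the well-expressed lncRNAs are small, and differences between any of these sets were not tested.

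Across the 174 pairs, the log2 fold change of the lncRNA and that of its neighbour had a Pearson correlation of 0.37, across genes, which are not independent replicates. It was 0.79 over the 16 same-strand overlaps, 0.47 over the 44 opposite-strand overlaps, 0.37 over the 24 divergent pairs and 0.12 over the 90 others. Overlapping genes share sequence and, without strand, reads. It was 0.20 for the 818 other lncRNAs and 0.12 for 11343 protein-coding genes with their own neighbours. Of the 63 lower lncRNAs, 28 had a neighbour that was lower, 9 one that was higher and 26 one that was not called. Of the 22 higher lncRNAs, 11 had a neighbour that was higher, 3 one that was lower and 8 one that was not called.

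**Figure D4:**
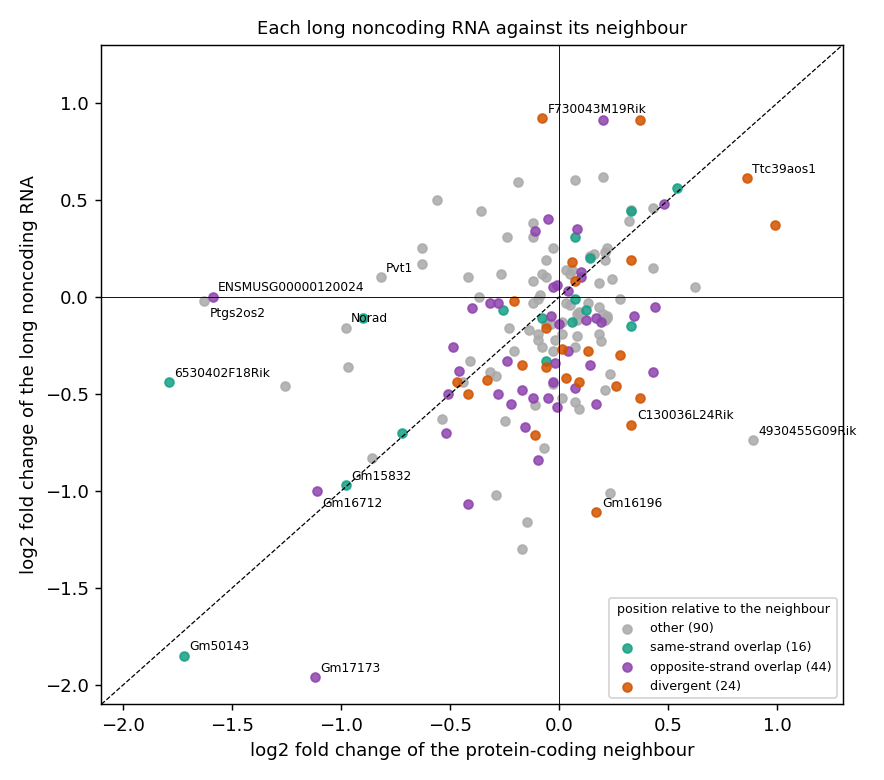
Log2 fold change of hypoxic-EV over normoxic-EV of each of the 174 lncRNAs (vertical) and of its protein-coding neighbour (horizontal), coloured by position, with equal change as the dashed line. Gm50143 and Gm15832, which overlap the neighbour on the same strand, lie near the line, while Ptgs2os2 and ENSMUSG00000120024 lie near 0 beside neighbours at -1.63 and -1.59.

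The difference between a lncRNA and its neighbour was tested directly as the log2 ratio of their CPM in each library. The ratio was lower for 47 lncRNAs and higher for 28 by limma at an adjusted p under 0.05, in all 43.1%, beside 44.9% of all genes with a neighbour (22.7% lower and 22.2% higher). By position, 11 ratios were lower and 2 higher among the 24 divergent lncRNAs, and 16 lower and 6 higher among the 44 opposite-strand overlaps. There were 1 lower and 2 higher among the 16 same-strand overlaps, and 19 lower and 18 higher among the 90 others.

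In 4 of the 24 divergent pairs the lncRNA was lower and the neighbour higher. The 12 lower divergent lncRNAs had 4 higher neighbours, 4 lower ones and 4 that were not called. Of all 24 neighbours 10 were higher, and whether opposed pairs were more frequent than these shares give was not tested. Gm16196, whose values are given above, starts 60 bases from Srsf3. That gene had 296, 320.3 and 302 CPM in hypoxic-EV, against 266, 276 and 276 CPM in normoxic-EV (log2 fold change 0.17, adjusted p by edgeR = 0.00551). No library of either gene overlapped between the groups, and the ratio fell with the lowest adjusted p of all 47 (log2 ratio -1.20, SE 0.097, adjusted p by limma = 2.45e-07). C130036L24Rik (ENSMUSG00000073627, chromosome 1, 86287296 to 86301513, plus strand) starts 174 bases from Ncl, which encodes nucleolin, a protein of ribosome biogenesis. It had 5.54, 4.33 and 5.12 CPM in hypoxic-EV, against 7.05, 8.75 and 7.86 CPM in normoxic-EV (log2 fold change -0.66, SE 0.14, adjusted p by edgeR = 5.00e-04). Ncl had 2134, 2358 and 2077 CPM in hypoxic-EV, against 1757, 1724 and 1759 CPM in normoxic-EV, again without overlap (log2 fold change 0.33, adjusted p by edgeR = 2.04e-05). The ratio fell (log2 ratio -0.93, SE 0.11, adjusted p by limma = 7.47e-06).

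The other two such pairs were 2010320M18Rik with Pik3r2, which encodes a regulatory subunit of phosphoinositide 3-kinase, and 4833418N02Rik with Ttc7. The first lncRNA had 4.48, 5.098 and 4.90 CPM in hypoxic-EV, against 7.05, 8.05 and 5.86 CPM in normoxic-EV (log2 fold change -0.52, SE 0.14, adjusted p by edgeR = 0.00566). Pik3r2 was higher (log2 fold change 0.37, adjusted p by edgeR = 5.71e-05). The second had 5.72, 6.17 and 5.97 CPM in hypoxic-EV, against 8.37, 8.22 and 7.99 CPM in normoxic-EV (log2 fold change -0.46, SE 0.12, adjusted p by edgeR = 0.00367). Ttc7 was higher (log2 fold change 0.26, adjusted p by edgeR = 0.00150). Neither lncRNA overlapped between the groups. The ratio fell by 0.85 and by 0.69 on the log2 scale (adjusted p by limma = 1.49e-04 and 3.32e-04). The lncRNA was higher and the neighbour lower in 0 divergent pairs, and F730043M19Rik was higher beside a neighbour without a call. Atxn7l1, which starts 81 bases away, had 27.8, 29.9 and 29.8 CPM in hypoxic-EV, against 29.2, 33.8 and 29.96 CPM in normoxic-EV and was not called, and the ratio rose (log2 ratio 0.96, SE 0.15, adjusted p by limma = 1.15e-04).

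The sequence between such starts is shared by both genes of a pair, and 4 of the promoters are shown for that reason. Each runs from 250 bases before to 50 bases from the RefSeq start of the lncRNA, 5′ to 3′ on its own strand, with the 50 bases from the start in capitals. They are RefSeq's on GRCm38.p6, at chr17:29032574-29032873 (minus strand) for Gm16196, chr1:86359334-86359633 (plus) for C130036L24Rik, chr12:33147537-33147836 (minus) for F730043M19Rik and chr8:70776612-70776911 (plus) for 2010320M18Rik.
Gm16196: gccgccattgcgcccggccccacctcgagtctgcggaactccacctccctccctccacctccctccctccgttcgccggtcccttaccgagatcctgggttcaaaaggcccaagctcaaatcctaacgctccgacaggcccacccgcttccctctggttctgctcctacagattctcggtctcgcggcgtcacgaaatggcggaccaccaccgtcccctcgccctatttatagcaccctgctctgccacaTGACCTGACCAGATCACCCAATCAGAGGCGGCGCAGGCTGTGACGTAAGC
C130036L24Rik: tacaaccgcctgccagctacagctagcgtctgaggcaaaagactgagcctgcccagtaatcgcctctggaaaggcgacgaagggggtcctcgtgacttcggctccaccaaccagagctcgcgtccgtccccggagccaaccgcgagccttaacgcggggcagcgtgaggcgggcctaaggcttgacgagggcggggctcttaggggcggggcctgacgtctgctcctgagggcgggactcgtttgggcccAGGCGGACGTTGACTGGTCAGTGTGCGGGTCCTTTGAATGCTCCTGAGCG
F730043M19Rik: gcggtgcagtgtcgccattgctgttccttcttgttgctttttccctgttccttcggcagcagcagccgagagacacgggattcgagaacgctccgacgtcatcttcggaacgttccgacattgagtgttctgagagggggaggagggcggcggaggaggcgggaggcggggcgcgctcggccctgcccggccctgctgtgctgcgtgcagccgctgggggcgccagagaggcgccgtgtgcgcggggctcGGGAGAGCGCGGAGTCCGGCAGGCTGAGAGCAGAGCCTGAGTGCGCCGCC
2010320M18Rik: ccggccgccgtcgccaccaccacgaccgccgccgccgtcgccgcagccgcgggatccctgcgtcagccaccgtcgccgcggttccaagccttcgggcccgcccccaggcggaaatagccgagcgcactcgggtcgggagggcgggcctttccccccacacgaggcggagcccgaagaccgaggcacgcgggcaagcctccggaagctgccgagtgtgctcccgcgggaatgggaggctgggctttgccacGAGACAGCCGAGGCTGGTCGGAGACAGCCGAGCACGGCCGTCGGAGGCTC
These windows hold 63%, 65.3%, 68.7% and 74.7% G and C, with 23, 27, 33 and 43 CpG sites, in the order shown. In the files' annotation the starts of the paired genes lie 60, 174, 81 and 44 bases apart, so each window reaches past the start of the neighbour. The RefSeq start differed from the GENCODE start by 56, 9, 10 and 46 bases.

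Other divergent pairs moved together. In 4 pairs both genes were lower and in 3 both were higher. Gm16001 and Gm20544 are given from these and were chosen after their values were seen. Gm16001 (ENSMUSG00000085433, chromosome 5, 124242612 to 124250327, minus strand), the most abundant divergent lncRNA that fell, had 54.7, 57.3 and 56.5 CPM in hypoxic-EV, against 74.8, 78.96 and 84.6 CPM in normoxic-EV, without overlap (log2 fold change -0.50, SE 0.056, adjusted p by edgeR = 3.20e-07). Ogfod2, 33 bases away, was lower as well (log2 fold change -0.42, adjusted p by edgeR = 0.00476). The ratio did not pass the test (log2 ratio -0.10, SE 0.13, adjusted p by limma = 0.562). Gm20544 had 9.73, 8.26 and 8.897 CPM in hypoxic-EV, against 6.69, 7.41 and 6.702 CPM in normoxic-EV (log2 fold change 0.37, SE 0.12, adjusted p by edgeR = 0.0148). Smad7, the gene of an inhibitor of TGF-beta signalling beside it, rose more (log2 fold change 0.99, adjusted p by edgeR = 3.48e-08). The ratio fell (log2 ratio -0.61, SE 0.15, adjusted p by limma = 0.00439). The promoter windows of Gm16001 (chr5:124112197-124112496, minus strand) and Ttc39aos1 (chr4:109406208-109406507, minus strand) are shown, from RefSeq on GRCm38.p6, because each holds a match to a motif searched, in capitals.
Gm16001: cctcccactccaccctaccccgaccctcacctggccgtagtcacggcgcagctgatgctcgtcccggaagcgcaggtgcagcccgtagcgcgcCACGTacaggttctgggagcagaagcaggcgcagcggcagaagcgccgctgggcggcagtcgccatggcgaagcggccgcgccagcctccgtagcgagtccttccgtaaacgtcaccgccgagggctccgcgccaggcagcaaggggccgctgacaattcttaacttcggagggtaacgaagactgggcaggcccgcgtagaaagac
Ttc39aos1: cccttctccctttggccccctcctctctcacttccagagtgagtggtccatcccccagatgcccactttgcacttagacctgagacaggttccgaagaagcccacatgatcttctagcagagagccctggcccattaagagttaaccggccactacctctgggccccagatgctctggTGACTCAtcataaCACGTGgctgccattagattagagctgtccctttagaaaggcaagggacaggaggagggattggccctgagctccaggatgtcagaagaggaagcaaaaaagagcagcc
The capitals are CACGT in Gm16001, the reverse strand of ACGTG, and TGACTCA, which fits TGANTCA, followed by CACGTG in Ttc39aos1.

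A set of 5 motifs was searched on both strands of the 86 lncRNA promoters that RefSeq's table held, and in all 27025 promoters of the same 300 bases. ACGTG, the core of the hypoxia response element, was in 31.4% of the lncRNA promoters and 19.7% of all promoters. It was in 14 of 41 promoters of lower lncRNAs, 1 of 8 of higher ones and 12 of 37 of those not called. CACGTG, the E-box, which contains ACGTG, was in 14% and 7.24%, and TGANTCA, bound by AP-1, in 14% and 7.93%. An NF-kB motif was in 3.49% and 1.43%, and the interferon-stimulated response element in 2.33% and 3.49%. A match is a run of letters in the window and no sign of binding.

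**Figure D5:**
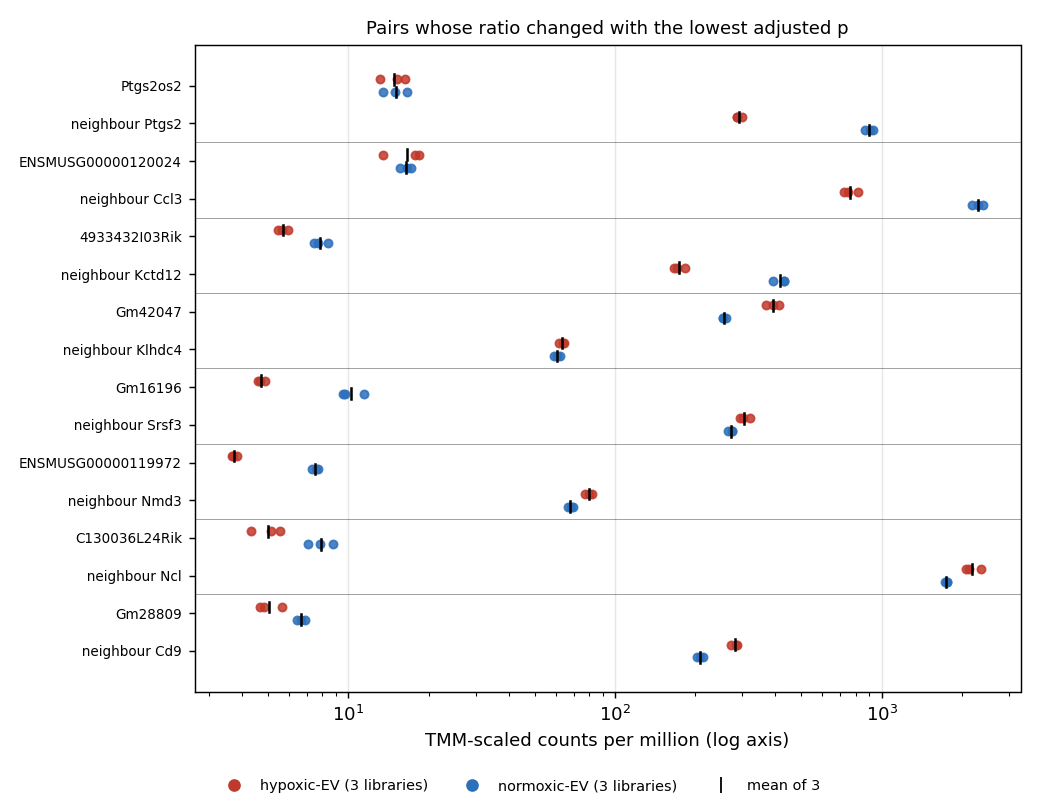
TMM-scaled CPM (log axis) in 3 hypoxic-EV (red) and 3 normoxic-EV (blue) libraries, with the mean as a bar. Shown are the 4 lncRNAs in each direction whose ratio to the neighbour changed with the lowest adjusted p, each above its neighbour. In the top pair Ptgs2os2 averages 14.9 CPM in hypoxic-EV and 15.04 CPM in normoxic-EV. Ptgs2 averages 291 CPM in hypoxic-EV and 899 CPM in normoxic-EV.

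The ratio to the neighbour rose with the lowest adjusted p for Ptgs2os2, ENSMUSG00000120024, 4933432I03Rik and Gm42047. In the first 3 pairs a highly expressed neighbour was lower and the lncRNA followed less or was not called. Ptgs2, which encodes cyclooxygenase 2 and ends 50815 bases from Ptgs2os2, had 287, 286 and 299 CPM in hypoxic-EV, against 867, 902 and 928 CPM in normoxic-EV. Each hypoxic-EV library of Ptgs2 was below each normoxic-EV one while those of Ptgs2os2 overlapped (log2 ratio 1.61, SE 0.087, adjusted p by limma = 7.32e-09). ENSMUSG00000120024 (chromosome 11, 83539329 to 83541209, plus strand) is annotated as antisense to the chemokine gene Ccl3. It had 18.5, 17.8 and 13.5 CPM in hypoxic-EV, against 17.2, 15.7 and 16.6 CPM in normoxic-EV, with overlap (log2 fold change -0.0, SE 0.10, adjusted p by edgeR = 0.993). Ccl3 had 751, 723 and 815 CPM in hypoxic-EV, against 2399, 2308 and 2173 CPM in normoxic-EV, and the ratio rose (log2 ratio 1.58, SE 0.12, adjusted p by limma = 8.61e-08). The counts of Ccl3 came to 9169% of those of the lncRNA, and reads of the pair cannot be told apart with certainty.

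A pair of lncRNAs lies between Kctd12, which encodes a protein associated with GABA-B receptors, and Acod1, which encodes the itaconate-producing enzyme of activated macrophages. 4933432I03Rik (ENSMUSG00000114980, chromosome 14, 103224848 to 103271239, minus strand) had 5.95, 5.66 and 5.46 CPM in hypoxic-EV, against 8.37, 7.697 and 7.46 CPM in normoxic-EV, lower without overlap (log2 fold change -0.46, SE 0.12, adjusted p by edgeR = 0.00452). Kctd12 had 167, 184 and 171 CPM in hypoxic-EV, against 391, 430.2 and 429 CPM in normoxic-EV, and the ratio rose (log2 ratio 0.83, SE 0.098, adjusted p by limma = 9.40e-06). Gm34643, which overlaps 4933432I03Rik on the other strand and was chosen for that position, had 12.1, 13.2 and 11.3 CPM in hypoxic-EV, against 14.5, 15.2 and 17.04 CPM in normoxic-EV and was lower as well (log2 fold change -0.36, SE 0.098, adjusted p by edgeR = 0.005003). Acod1 had 449, 497 and 497 CPM in hypoxic-EV, against 1017, 952 and 854 CPM in normoxic-EV, a larger decrease (log2 ratio 0.63, SE 0.10, adjusted p by limma = 1.97e-04 for Gm34643 over Acod1). All 4 genes of the stretch were thus lower, the coding genes by more than the lncRNAs. Gm42047 rose while Klhdc4, 3677 bases away, had 63.95, 61.9 and 64.4 CPM in hypoxic-EV, against 62.02, 58.9 and 60.8 CPM in normoxic-EV and was not called (log2 ratio 0.54, SE 0.062, adjusted p by limma = 7.35e-06).

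The ratio fell with the lowest adjusted p for Gm16196 and C130036L24Rik, given above, and for ENSMUSG00000119972 and Gm28809. Nmd3, an export factor of the large ribosomal subunit, is the neighbour of ENSMUSG00000119972 at a distance of 1032818 bases. Nmd3 had 77.3, 79.6 and 82.1 CPM in hypoxic-EV, against 68.2, 69.7 and 66.4 CPM in normoxic-EV (log2 ratio -1.15, SE 0.12, adjusted p by limma = 2.03e-06 for the lncRNA over Nmd3). Gm28809 (ENSMUSG00000101191, chromosome 6, 125458326 to 125461641, plus strand) overlaps Cd9 on the other strand, the gene of a tetraspanin of the cell surface and of vesicles. It had 4.66, 4.84 and 5.63 CPM in hypoxic-EV, against 6.87, 6.65 and 6.44 CPM in normoxic-EV, a narrow gap without overlap (log2 fold change -0.39, SE 0.13, adjusted p by edgeR = 0.0222). Its own call was lost without hypoxic-EV replicate 1, hypoxic-EV replicate 2 or normoxic-EV replicate 1, at -0.34, -0.35 and -0.36 (adjusted p by edgeR = 0.0713, 0.0591 and 0.0662). DESeq2 did not call it (adjusted p by DESeq2 = 0.0921). Cd9 had 288, 284 and 273 CPM in hypoxic-EV, against 208, 213 and 204 CPM in normoxic-EV, higher in each hypoxic-EV library (log2 fold change 0.43, adjusted p by edgeR = 1.07e-07). The ratio fell (log2 ratio -0.80, SE 0.099, adjusted p by limma = 1.40e-05). A wider gap, outside the 8 and chosen after its values were seen, was that of 4930455G09Rik beside Tmem51. The lncRNA had 5.19, 5.404 and 4.69 CPM in hypoxic-EV, against 8.48, 8.46 and 8.57 CPM in normoxic-EV. Tmem51 had 8.07, 8.004 and 8.04 CPM in hypoxic-EV, against 3.53, 3.79 and 5.46 CPM in normoxic-EV, so the lncRNA was lower and the neighbour higher (log2 ratio -1.55, SE 0.19, adjusted p by limma = 1.66e-05).

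Of the 174 lncRNAs, 106 overlapped no other gene with more than 10% of their own counts, and 36 of these were lower and 14 higher (47.2% called). Of the 68 that did, 27 were lower and 8 higher (51.5% called). An overlapping gene on the other strand with more counts than the lncRNA was present for 38, of which 19 were lower and 5 higher (63.2% called). Over all genes tested 44.2% were called, 21.5% lower and 22.7% higher. The 47.2% and 51.5% called thus lay near the background, and the 63.2% lay above it. The shares that were lower, 34%, 39.7% and 50% in the same order, all lay above that of all genes. Differences between these sets were not tested.

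The authors' deposited table of their own comparison lists 462 genes, and the smallest absolute log2 fold change in it is 1.001. It holds 3.39% of the genes tested here and 8 of the 174 lncRNAs, all marked as down: Gm17173, Gm50143, A230028O05Rik, ENSMUSG00000120405, Gm16196, Gm49774, Gm14636 and ENSMUSG00000119972. Their log2 fold changes in the authors' deposited table run from -1.96 for Gm17173 to -1.01 for ENSMUSG00000119972.

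Just above the threshold of 5 CPM lay Gm35037 with a mean of 5.05 CPM, Gm1976 with 5.05 CPM and Gm48226 with 5.13 CPM. Just below it were 2810402E24Rik with 4.94 CPM, 2010204K13Rik with 4.94 CPM and Gm49602 with 4.89 CPM. By identifier, 141 of the 174 lncRNAs matched the GENCODE annotation of the older build GRCm38. There 125 had a transcript of at least 2 exons and the longest transcript had a median of 2017 bases. The median longest transcript was 1991 bases for the lower, 1901 bases for the higher and 2194 bases for the lncRNAs not called. Chromosome 17 carried the most of them, 21.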

How the data were processed

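Poly(A) RNA of 6 samples was sequenced in pairs from TruSeq libraries on an Illumina HiSeq instrument, per the labels' protocols. Reads were handled with HISAT2 and featureCounts on GRCm39, and DESeq2 was used, per the submitters' processing notes. The versions, settings and strand handling are not given. For each gene the authors deposited a raw count, in whole numbers, and an FPKM value, which scales for depth and gene length. A table of the authors' own comparison gives log2 fold changes and p-values for 462 genes. A deposited table of normalized counts was not used. Groups were taken from the treatment in the labels, and every count column matched 1 sample.

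The members and the lists of lncRNAs, markers and motifs were chosen with earlier results of these data known. Members were found in the counts by biotype, a mean of at least 5 CPM and their names. The whole table went into edgeR 4.0.16 (R 4.3.3). Its function filterByExpr (minimum count 10, minimum total 15) kept 13303 genes, and TMM scaled the libraries. The two-sided quasi-likelihood F-test set hypoxic-EV against normoxic-EV, and p-values were adjusted by Benjamini-Hochberg over the 13303 genes. An SE of a log2 fold change was taken as the absolute change over the root of F. The neighbour of a gene was the tested protein-coding gene with the most overlapping bases, or else with the smallest gap. The log2 ratio of (CPM + 0.5) of a gene to that of its neighbour was tested with limma 3.58.1 over 13301 genes. Both tests were also run on simulated data.

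Named were the 8 lncRNAs with the highest mean CPM, the 10 largest increases and decreases among those called without overlap, every called lncRNA of the role lists, and the 4 with the lowest adjusted p of the ratio in each direction, with their neighbours. Members of the role lists that were not called are named too. The 2 further divergent pairs that moved in opposite directions complete a count of 4. Other members were named after their values or positions were seen, as their sentences or the closing observations say. Alternatives were DESeq2 1.42.0, RLE scaling, no count filter, a replicate block, each library left out, other CPM thresholds, members without overlapping genes and a ratio pseudocount of 2. Sequences come from RefSeq on GRCm38.p6, and no gene coordinate of the files was converted between builds. Depth ran from 16751665 to 23422328 counts per library. Molecular identifiers are not mentioned, so reads may be copies of 1 molecule, and the SDs hold counting error and the spread between libraries together.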

Additional observations from a re-analysis of the deposited data

How the results depend on the processing

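Of 174 lncRNAs, DESeq2 called 14 higher in place of 22, each of them among the 22. It called 49 lower in place of 63, each among the 63. Over all genes it called fewer as well, 2588 higher in place of 3023 and 2299 lower in place of 2854. It fitted 26398 genes in place of 13303. A mean of at least 10 CPM left 82 lncRNAs with 9 higher and 31 lower, and a mean of at least 2 CPM gave 383 with 37 higher and 121 lower. The 106 lncRNAs without an overlapping gene over 10% of their counts held 14 higher and 36 lower. Of the 114 that do not overlap the neighbour, 30 had a lower ratio, in place of 47 of 174. The changed counts in these sets come with the changed number of lncRNAs, and the cause of the lower DESeq2 counts was not tested. RLE scaling gave 22 higher and 64 lower, and no count filter 23 and 61. Over all genes RLE scaling gave 2970 higher and 2896 lower, and no count filter 3095 and 2621. A ratio pseudocount of 2 gave 28 higher and 55 lower ratios, in place of 28 and 47. Leaving out 1 library gave between 16 and 26 higher and between 52 and 61 lower. Over all genes the same fits called between 2547 and 3014 higher and between 2436 and 2764 lower. The median log2 fold change of the lncRNAs in them lay between -0.161 and -0.094 (-0.125 with all). Between 24 and 30 ratios were higher and between 37 and 46 lower. The difference in the share of counts lay between -0.0252 and 2.52e-04 percentage points (-0.0114 with all), and it changed sign without hypoxic-EV replicate 3. Without Malat1 and Gm42047, the 2 lncRNAs with the most counts, it was -0.0234 (exact permutation p = 0.1, the smallest that 3 against 3 allows).

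Same-numbered libraries of the groups did not deviate together (correlations of -0.0156, -0.0177 and -0.0175 over genes). This check cannot show whether same-numbered samples were handled together, and the labels do not say so. The main fits took the samples as unpaired. With the number as a replicate block, 22 were higher and 65 lower, the median was -0.126, and 27 ratios were higher and 44 lower.

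Over the 35 named lncRNAs and these alternatives, 311 values kept their direction and their side of the threshold, 21 lost the call (of Norad, Gm35037, Firre, Morrbid, Peg13 and Gm28809) and 3 gained it, all for Neat1, including -0.17 without a count filter (adjusted p by edgeR = 0.00804) and -0.19 with the replicate block (adjusted p by edgeR = 0.0347). The other 15 changed sign, for 5 lncRNAs that were called in none of these fits. Leaving out 1 library gave Malat1 between -0.18 and 0.18, Gm46620 between -0.1 and 0.09, ENSMUSG00000121141 between -0.02 and 0.01, Ptgs2os2 between -0.09 and 0.07 and ENSMUSG00000120024 between -0.08 and 0.14. Without a count filter ENSMUSG00000121141 was at 0.01, Ptgs2os2 at 0.0 and ENSMUSG00000120024 at 0.01, and by DESeq2 ENSMUSG00000120024 was at 0.0. With 3 samples a group and a lowest library count of 52, small changes of the lncRNAs near 5 CPM could not be told from the spread between libraries.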

Other observations

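Of the 11 lncRNAs left out by their names, 2 were higher, 2 lower and 7 not called. That is 36.4% called, beside 44.2% of all genes tested. Most of this set host small nucleolar RNAs in their introns. Snhg12 had 45.8, 41.6 and 48.1 CPM in hypoxic-EV, against 68.3, 72.3 and 75.98 CPM in normoxic-EV, without overlap (log2 fold change -0.68, SE 0.063, adjusted p by edgeR = 1.96e-08). Snhg1 was lower as well, with 67.7, 76.2 and 66.2 CPM in hypoxic-EV, against 91.7, 91.2 and 86.1 CPM in normoxic-EV (log2 fold change -0.36, SE 0.058, adjusted p by edgeR = 3.56e-05). Snhg4 went the other way with 6.84, 6.63 and 5.59 CPM in hypoxic-EV, against 4.06, 4.61 and 3.77 CPM in normoxic-EV (log2 fold change 0.61, SE 0.15, adjusted p by edgeR = 0.00165), and Snhg5 was higher with a log2 fold change of 0.22 (adjusted p by edgeR = 0.00864). Gas5, a host whose RNA is known to accumulate when growth stops, had 147, 164 and 142 CPM in hypoxic-EV, against 159, 163 and 165 CPM in normoxic-EV, which overlapped (log2 fold change -0.10, SE 0.053, adjusted p by edgeR = 0.117).

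Some lncRNAs with a known role lay below 5 CPM. Mir155hg, host of a microRNA induced by Toll-like receptor ligands, had 2.77, 2.804 and 3.05 CPM in hypoxic-EV, against 3.05, 4.72 and 3.73 CPM in normoxic-EV (log2 fold change -0.41, SE 0.18, adjusted p by edgeR = 0.0752). Ptgs2os, which lies on the other side of Ptgs2 from Ptgs2os2, had 0.177, 0.612 and 0.344 CPM in hypoxic-EV, against 0.598, 1.23 and 0.7101 CPM in normoxic-EV (log2 fold change -1.11, SE 0.42, adjusted p by edgeR = 0.0378), lower with overlapping groups. Trp53cor1, also called lincRNA-p21, had 2.299, 2.702 and 1.81 CPM in hypoxic-EV, against 3.23, 2.86 and 2.66 CPM in normoxic-EV (log2 fold change -0.37, SE 0.20, adjusted p by edgeR = 0.145). Tug1 is annotated as protein-coding in the deposited table and so is no member by the rule, at 192, 184 and 182 CPM in hypoxic-EV, against 204, 215 and 205 CPM in normoxic-EV (log2 fold change -0.16, SE 0.046, adjusted p by edgeR = 0.00742).

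The order of libraries given above for Malat1 and Neat1 was counted over all 174 lncRNAs, with both of these included. Whether its share differs from that of all genes was not tested. The highest hypoxic-EV library was replicate 1 and the highest normoxic-EV library replicate 2 for 35 of the 174 lncRNAs (20.1%), Malat1, Neat1, Firre and Norad among them, beside 12.1% of all 13303 genes tested. The largest spread within groups was that of Gm47283 on chromosome Y, with 5.78, 4.28 and 5.24 CPM in hypoxic-EV, against 4.42, 5.77 and 11.8 CPM in normoxic-EV. Normoxic-EV replicate 3 stood apart there, and the gene was not called (log2 fold change -0.56, SE 0.24, adjusted p by edgeR = 0.0618).

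Counts by kind of name follow, beside 21.5% lower and 22.7% higher over all genes tested. Of 51 lncRNAs named as RIKEN clones, 22 were lower (43.1%) and 2 higher (3.92%). Of 65 with a Gm name, 25 were lower (38.5%) and 11 higher (16.9%). Of 24 with no name but an Ensembl identifier, 4 were lower (16.7%) and 3 higher (12.5%). Differences between these kinds were not tested.

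A pair in the Raet1 gene region of chromosome 10, chosen after the values were seen, had nearly equal levels. Gm26581 (4479 bases) had 20.98, 21.7 and 19.2 CPM in hypoxic-EV, against 14.3, 17.4 and 13.9 CPM in normoxic-EV (log2 fold change 0.44, SE 0.094, adjusted p by edgeR = 6.22e-04), and Gm10825 (4478 bases) had 21.8, 21.0 and 19.2 CPM in hypoxic-EV, against 14.3, 15.8 and 15.1 CPM in normoxic-EV (log2 fold change 0.45, SE 0.085, adjusted p by edgeR = 1.88e-04). The near-equal lengths and levels are given as values, and shared reads were not tested. ENSMUSG00000121430, which lies between them on the same strand, had 18.5, 18.2 and 18.2 CPM in hypoxic-EV, against 17.98, 23.3 and 19.8 CPM in normoxic-EV and was not called (log2 fold change -0.15, SE 0.090, adjusted p by edgeR = 0.179).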
